A study of Mus musculus with 15 samples.

Results

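The 35 genes described here encode ATP-binding cassette (ABC) proteins and were listed by name, and all 35 were found among the 20453 genes with a symbol in a table of RNA sequencing reads from mouse bone marrow. They comprise 8 Abca, 7 Abcb, 9 Abcc, 3 Abcd, 1 Abce, 3 Abcf and 4 Abcg genes, and another 17 ABC genes of the table are not among them. A low-count filter kept 34 of the 35 for testing, within 14542 genes tested; Abcc6 did not pass.

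ABC proteins use ATP to move lipids, drugs, peptides, metals and metabolites across membranes. The Abca, Abcb, Abcc, Abcd and Abcg subfamilies hold the transporters. The Abce and Abcf proteins keep the ATP-binding domains, have no membrane-spanning part, and work with the ribosome instead. In blood-forming cells the family is known for the drug pumps P-glycoprotein and Abcg2, for cholesterol export from macrophages, and for ribosome recycling.

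The libraries come from C57BL/6 bone marrow that was depleted of cells carrying Cd5, Cd11b, B220, Gr-1 or Ter119 and then sorted. The groups are LTearly (4 libraries), LTlate (3), BMTGMP (3) and wtGMP (4), and the labels do not spell these names out. They describe a gate for granulocyte-macrophage progenitors (GMP) and a gate for long-term haematopoietic stem cells (LT-HSC), without saying which gate each library came from. All libraries carry the same text on the animals: a human MLL-AF9 cDNA, the fusion gene of an acute myeloid leukaemia, was targeted into embryonic stem cells of the A2Lox-cre line, selected clones gave chimeric mice, and these were backcrossed to C57BL/6, with female offspring heterozygous for both alleles. Ages, the treatment of each group and the genotype of the wtGMP mice are not given there, and the titles of LTearly, LTlate and BMTGMP libraries end in codes that differ within a group but are not explained. Whether libraries of a group came from separate animals is thus not stated, and p-values measure the spread between these libraries, which may be technical.

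Reads on named genes ran from 2695917 to 8695136 per library in LTearly, from 11569408 to 15093009 in LTlate, from 4556108 to 10712743 in BMTGMP and from 2469470 to 6978756 in wtGMP. Another library, titled LTearly in one label and LTlate in its column name, was left out of every comparison. The 8 GMP and promyelocyte markers (such as Mpo and Elane) summed to 1250 to 6620 CPM (counts scaled to a common library total) in LTearly, 1540 to 1950 in LTlate, 8130 to 11600 in BMTGMP and 19400 to 22700 in wtGMP. Mpo made up most of the sum in wtGMP (17500 ± 1390 CPM, SD) and BMTGMP (7690 ± 1730 CPM), and averaged 2070 ± 1900 CPM in LTearly. Elane was not lower in BMTGMP (1060 ± 271 CPM) than in wtGMP (917 ± 91.9 CPM). The 7 LT-HSC markers summed to 28.3 to 70.8 CPM in LTearly, 16.6 to 42.9 in LTlate, 4.09 to 26.8 in BMTGMP and 8.52 to 22.5 in wtGMP, with Slamf1 and Procr without reads in LTlate and Slamf1 without reads in wtGMP. These sums rest largely on different genes. Mecom averaged 27.4 ± 6.92 CPM (SD) in LTearly, and Gata2 26.7 ± 10.1 CPM in LTlate and 12.5 ± 4.29 CPM in wtGMP. Gata2 is also a marker of eosinophils, basophils and mast cells, so the sums do not measure stem cell content. The 11 late neutrophil markers (such as Ngp, Ltf and S100a9) summed to 12700 to 25500 CPM in LTearly, 5070 to 9010 in LTlate, 1400 to 6910 in BMTGMP and 55.6 to 148 in wtGMP, although Gr-1 was among the depletion antibodies. The libraries are bulk RNA, so fewer cells of a type and less RNA per cell cannot be told apart.

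A gene is called higher or lower here when its adjusted p (edgeR, Benjamini-Hochberg over all 14542 genes) is under 0.05. In LTearly against wtGMP, 15 of the 34 tested ABC genes were called (44.1%), while 20.1% of all tested genes were. Of these, 8 were higher (background 11.1%) and 7 lower (background 8.93%). Among the 8, Abca6 and Abcc8 did not pass the low-count filter with only LTearly and wtGMP in the fit. In LTlate against wtGMP, 9 of 34 were called (26.5%; background 10.8%), 6 higher (background 7.53%) and 3 lower (background 3.25%). In BMTGMP against wtGMP, 7 of 34 were called (20.6%; background 6.58%), 5 higher (background 4.41%) and 2 lower (background 2.17%). Groups did not overlap for 15 of the 34 genes in LTearly against wtGMP (44.1%; background 21.8%), for 16 in LTlate (47.1%; background 26.0%) and for 12 in BMTGMP (35.3%; background 19.2%). These comparisons share the wtGMP libraries. Among 13 tested ABC genes outside the 35, edgeR called 0, 0 and 1 in LTearly, LTlate and BMTGMP against wtGMP. Of those 13, Abca4, Abca8a, Abca8b, Abca12, Abca17, Abcb5, Abcc12 and Abcg8 averaged at most 5.91 CPM in every group. Of the 10 tested members under 10 CPM, edgeR also called 0, so counts of listed and other genes are not directly comparable. The 35 were listed with earlier results of these data known, so the shares describe the 34 tested genes and not the ABC family. The calls ran in both directions: the median log2 fold change of the 34 genes was -0.04, 0.07 and 0.10 in LTearly, LTlate and BMTGMP against wtGMP, beside 0.22, 0.00 and 0.07 for all genes tested.

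**Figure D1:**
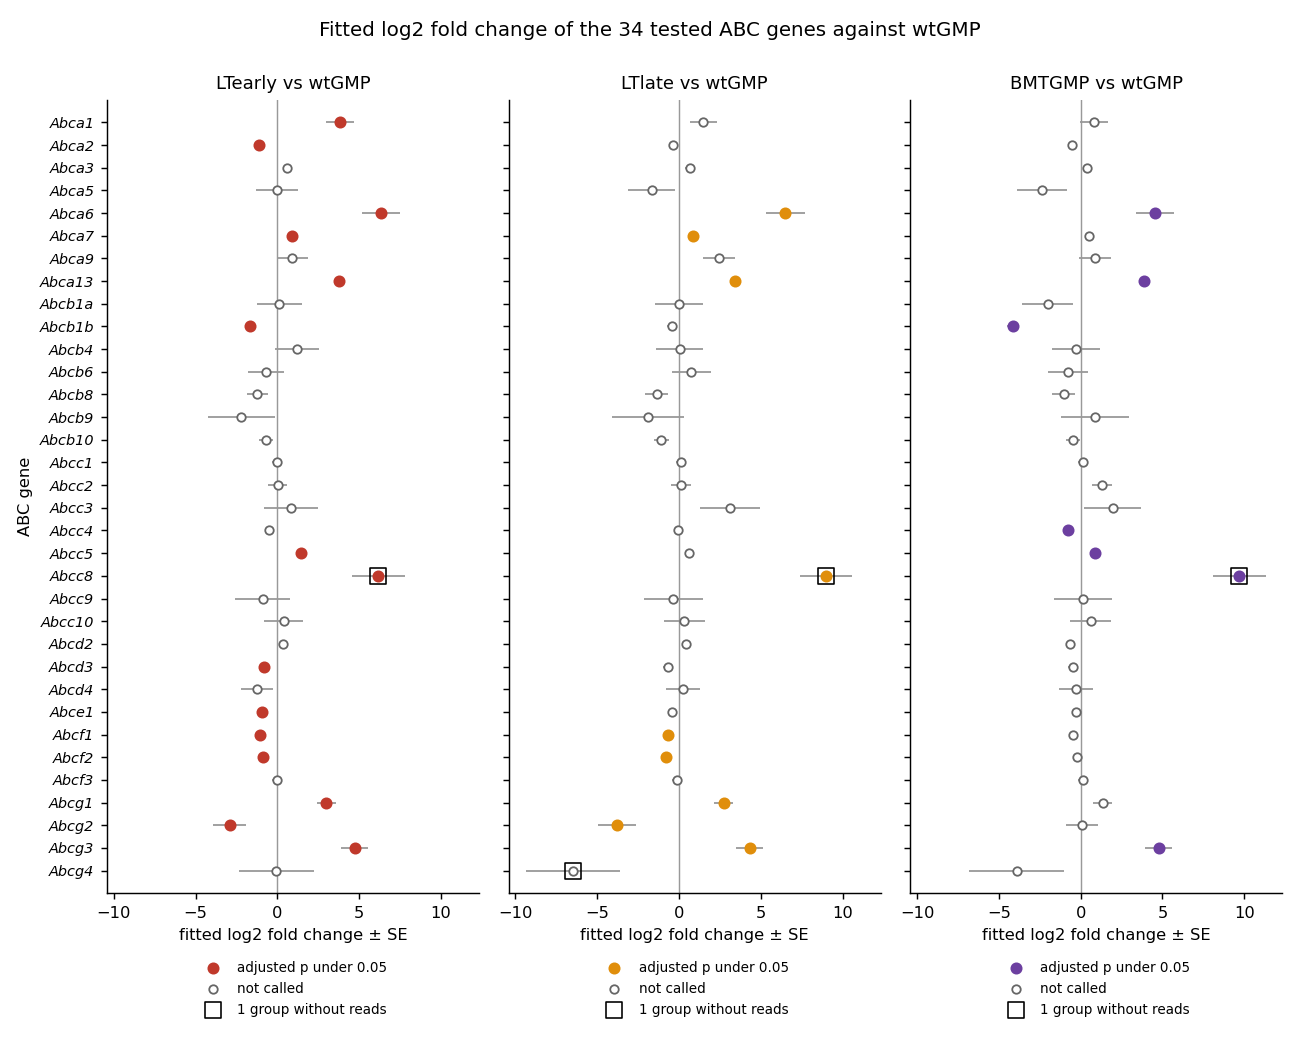
Fitted log2 fold change (x axis) of the 34 tested ABC genes (y axis, by subfamily) in LTearly, LTlate and BMTGMP against wtGMP, with bars of 1 standard error. Filled points have an edgeR adjusted p under 0.05, and a square marks a comparison in which 1 group had no reads, where the fitted size depends on the prior count. Abca13, Abca6, Abcc8 and Abcg3 lie to the right of 0 as filled points in every panel, and Abcb1b lies farthest to the left among the filled points of the BMTGMP panel.

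Per kilobase of transcript, the highest members were not membrane transporters in wtGMP. Abcf1 led in every group, with mean levels of 149, 194 and 228 CPM per kb in LTearly, LTlate and BMTGMP, against 314 in wtGMP. Abce1 and Abcf2 took places 2 and 3 in LTlate, BMTGMP and wtGMP. Abca13 stood at place 2 in LTearly, 4 in LTlate and 4 in BMTGMP, but at place 16 of the 35 in wtGMP, with 49.7, 39.0 and 53.0 CPM per kb against 3.62. At the low end, Abcc6 had 1 read over LTearly, 0 over LTlate, 7 over BMTGMP and 3 over wtGMP. The mean stayed under 10 CPM in every group for 11 members (Abca5, Abcb1a, Abcb4, Abcb6, Abcb9, Abcc3, Abcc6, Abcc9, Abcc10, Abcd4 and Abcg4), and of the 10 tested among them edgeR and DESeq2 each called 0 in any comparison. Only Abcg4 had an unadjusted p under 0.05, in LTlate against wtGMP and in LTearly against LTlate.

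The lipid transporters of the Abca subfamily held the largest rise in level. Abca13, the largest protein of the family and thought to handle lipids, had 710, 809, 845 and 818 CPM in the LTearly libraries, 571, 609 and 696 CPM in LTlate, 645, 956 and 942 CPM in BMTGMP, and 66.2, 54.3, 52.2 and 59.2 CPM in wtGMP. Every library of the first 3 groups was far above every wtGMP library. The log2 fold change was 3.77 ± 0.17 (SE) in LTearly (edgeR adjusted p = 1.32e-14), 3.43 ± 0.18 in LTlate (adjusted p = 2.34e-13) and 3.87 ± 0.18 in BMTGMP (adjusted p = 1.59e-14), each against wtGMP. Beside the late neutrophil marker sums, BMTGMP averaged 848 ± 175 CPM of Abca13 (SD, n = 3) at a marker sum of 1400 to 6910 CPM, and LTearly averaged 795 ± 59.1 CPM (SD, n = 4) at 12700 to 25500 CPM. Late neutrophil markers were called higher for 11 of 11 genes in LTearly, 10 in LTlate and 8 in BMTGMP against wtGMP, and the part of such cells in the Abca13 level was not tested.

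**Figure D2:**
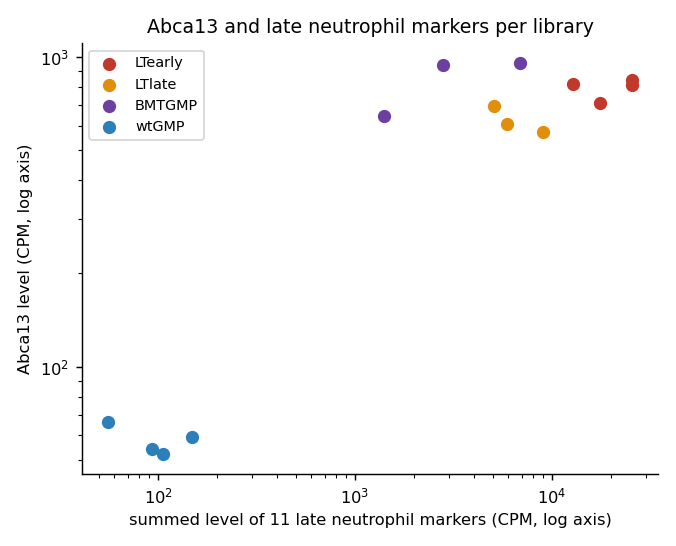
Abca13 level (CPM, log y axis) against the summed level of 11 late neutrophil markers (CPM, log x axis), 1 point per library, for LTearly, LTlate, BMTGMP and wtGMP. The 4 wtGMP libraries sit at the lower left, at 52.2 to 66.2 CPM of Abca13, and the 3 BMTGMP libraries reach 645 to 956 CPM at marker sums of 1400 to 6910 CPM.

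The promoter of Abca13 is shown because the gene had the smallest p of all members in LTearly, LTlate and BMTGMP against wtGMP. It is the run of 250 bases before the RefSeq start (GRCm38.p6, chr11:9191692-9191941, plus strand, 5′ to 3′), with matches on either strand to CCAAT (the CCAAT box) and to AGGAAGT (a word of the ETS factor type) in capitals.
Abca13: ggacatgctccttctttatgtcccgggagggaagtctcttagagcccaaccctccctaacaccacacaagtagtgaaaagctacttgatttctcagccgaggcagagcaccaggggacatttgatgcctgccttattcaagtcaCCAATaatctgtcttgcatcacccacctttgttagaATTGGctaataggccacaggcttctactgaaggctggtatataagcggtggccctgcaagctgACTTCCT
It holds 2 matches to CCAAT and 1 to AGGAAGT, which do not overlap. Of 32851 RefSeq windows of this length, 33.8% hold CCAAT and 7.69% hold AGGAAGT on either strand. Among the 25 members with a window (31 windows in all), 8 hold CCAAT and 4 hold AGGAAGT in at least 1 window. These are counts of genes, while the percentages count windows, so they are not directly comparable.

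Abca7, a phospholipid transporter linked to phagocytosis, had 155, 207, 146 and 161 CPM in LTearly, 187, 154 and 151 CPM in LTlate, 138, 98.2 and 161 CPM in BMTGMP, and 93.5, 78.0, 109 and 83.9 CPM in wtGMP. LTearly and LTlate did not overlap wtGMP, while 1 BMTGMP library lay within the wtGMP range. Abca7 rose by a log2 fold change of 0.88 ± 0.19 in LTearly (adjusted p = 0.00148) and 0.85 ± 0.21 in LTlate (adjusted p = 0.0059, or 0.0514 without LTlate library 2). In BMTGMP it was 0.54 ± 0.21 (adjusted p = 0.134).

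Abca6 belongs to a cluster of Abca genes on chromosome 11, next to Abca9 and Abca5, whose substrates are poorly known. It had 9.06, 1.87, 15.8 and 16.1 CPM in LTearly, 14.3, 18.3 and 3.37 CPM in LTlate, 2.98, 2.59 and 3.77 CPM in BMTGMP, and 0.143, 0, 0 and 0.317 CPM in wtGMP. The wtGMP values rest on 2 reads in all. The ratio of pooled reads against wtGMP was 101 in LTearly (95% exact binomial interval 27.5 to 836), 95.5 in LTlate (26.3 to 791) and 26.4 in BMTGMP (7.03 to 222). These intervals cover counting error only. With only LTearly and wtGMP in the fit, Abca6 did not pass the low-count filter. The edgeR adjusted p was 0.000212 in LTearly, 0.000388 in LTlate and 0.0137 in BMTGMP; the BMTGMP value was 0.17 with only BMTGMP and wtGMP in the fit and 0.0623 with libraries thinned to equal totals. The neighbour Abca9 had 0.245, 12.8, 37.1 and 36.5 CPM in LTearly, 61.4, 85.3 and 43.6 CPM in LTlate, 41.3, 2.98 and 19.7 CPM in BMTGMP, and 12.2, 12.2, 11 and 11.1 CPM in wtGMP. Only in LTlate were all libraries above wtGMP, and its log2 fold change of 2.45 ± 1.0 was not called (adjusted p = 0.165, against 0.0306 by DESeq2 and 5.14e-06 with only LTlate and wtGMP in the fit). The other neighbour, Abca5, ranged from 0 to 12.2 CPM in LTearly, 0 to 3.31 in LTlate, 0 to 3.14 in BMTGMP and 3.94 to 12.7 in wtGMP, and was not called in any comparison.

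Abca2, a lipid transporter of lysosomes best known from myelin-forming cells, went the other way in LTearly. It had 41.4, 74.1, 41.5 and 65.7 CPM in LTearly, 70.8, 93.3 and 123 CPM in LTlate, 76.7, 73.1 and 102 CPM in BMTGMP, and 133, 106, 100 and 147 CPM in wtGMP. Each LTearly library was below each wtGMP library, and the log2 fold change was -1.12 ± 0.24 (adjusted p = 0.000948). Abca3, which loads surfactant lipid in the lung, was not called against wtGMP in any group, with log2 fold changes of 0.60 ± 0.26, 0.67 ± 0.28 and 0.42 ± 0.28 in LTearly, LTlate and BMTGMP (adjusted p = 0.107, 0.133 and 0.429); the LTearly adjusted p was 0.0334 without LTearly library 1, and the LTlate value was 0.0359 with only LTlate and wtGMP in the fit.

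Cholesterol export is shared by Abca1, which loads cholesterol onto lipid-poor apolipoprotein, and Abcg1, which loads it onto mature lipoprotein particles; both are known targets of the liver X receptors (LXR). Abca1 had 27.4, 10.9, 67.2 and 13.0 CPM in LTearly, 5.71, 8.10 and 3.51 CPM in LTlate, 3.07, 2.46 and 5.66 CPM in BMTGMP, and 2.44, 5.51, 0 and 0.633 CPM in wtGMP. The 4 LTearly libraries were above every library of the other 3 groups and spread widely among themselves; the library with disagreeing labels had 21.7 CPM. Abca1 rose in LTearly by 3.83 ± 0.85 on the log2 scale (adjusted p = 0.00169), but was not called in LTlate (1.48 ± 0.84, adjusted p = 0.284) or BMTGMP (0.84 ± 0.85, adjusted p = 0.676).

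Abcg1 had 62.7, 21.6, 33.0 and 27.0 CPM in LTearly, 27.0, 22.7 and 41.5 CPM in LTlate, 10.2, 9.21 and 15.7 CPM in BMTGMP, and 8.46, 5.51, 0.224 and 3.80 CPM in wtGMP. All libraries of the first 3 groups were above all wtGMP libraries. It rose by 2.98 ± 0.57 in LTearly (adjusted p = 0.00048) and 2.73 ± 0.59 in LTlate (adjusted p = 0.00258), and was not called in BMTGMP (1.35 ± 0.59, adjusted p = 0.203). The brain sterol transporter Abcg4 ranged from 0 to 2.58 CPM in LTearly, was without reads in LTlate, reached 0.259 CPM in 1 BMTGMP library and was seen in 1 wtGMP library alone, at 6.27 CPM.

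Partners of sterol export were taken from a list of 19 genes. In LTearly 6 of the 19 rose and 0 fell, in LTlate 5 rose and 0 fell, and in BMTGMP 2 rose and 0 fell, with list medians of 0.44, 0.33 and 0.32 (all genes 0.22, 0.00 and 0.07). Higher calls made up 11.1%, 7.53% and 4.41% of all tested genes in LTearly, LTlate and BMTGMP, and lower calls 8.93%, 3.25% and 2.17%. Rxra, the receptor that pairs with LXR, averaged 36.2 ± 12.1, 44.7 ± 7.67 and 10.7 ± 1.55 CPM in LTearly, LTlate and BMTGMP, against 1.01 ± 0.928 CPM in wtGMP (SD), and rose in each (adjusted p = 7.18e-08, 8.27e-08 and 0.000116). The LXR genes Nr1h2 and Nr1h3 were not called in LTearly (edgeR adjusted p = 0.302 and 0.921), LTlate (0.583 and 0.926) or BMTGMP (0.349 and 0.872). LXR activity was not tested. Lpl, which splits lipoprotein triglyceride, averaged 50.7 ± 28.0, 131 ± 54.7 and 1.5 ± 1.23 CPM in the same groups, against 3.42 ± 3.09 CPM in wtGMP; it rose in LTearly (adjusted p = 0.00119) and LTlate (adjusted p = 0.00035). Apoe, an acceptor of exported cholesterol, rose in LTearly (2.96 ± 0.56, adjusted p = 0.00311) and in LTlate (2.47 ± 0.57, adjusted p = 0.0172), and was not called in BMTGMP (0.50 ± 0.56, adjusted p = 0.724). Markers of monocytes and macrophages, in which this pathway is best known, were called higher for 4 of 9 tested genes in LTearly, 4 in LTlate and 2 in BMTGMP. Their 10 genes summed to 678 to 1260 CPM in LTearly, 817 to 1080 in LTlate, 411 to 627 in BMTGMP and 546 to 611 in wtGMP, with C1qb without reads in BMTGMP and wtGMP. Their part in the Abca1 and Abcg1 values was not tested.

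**Figure D3:**
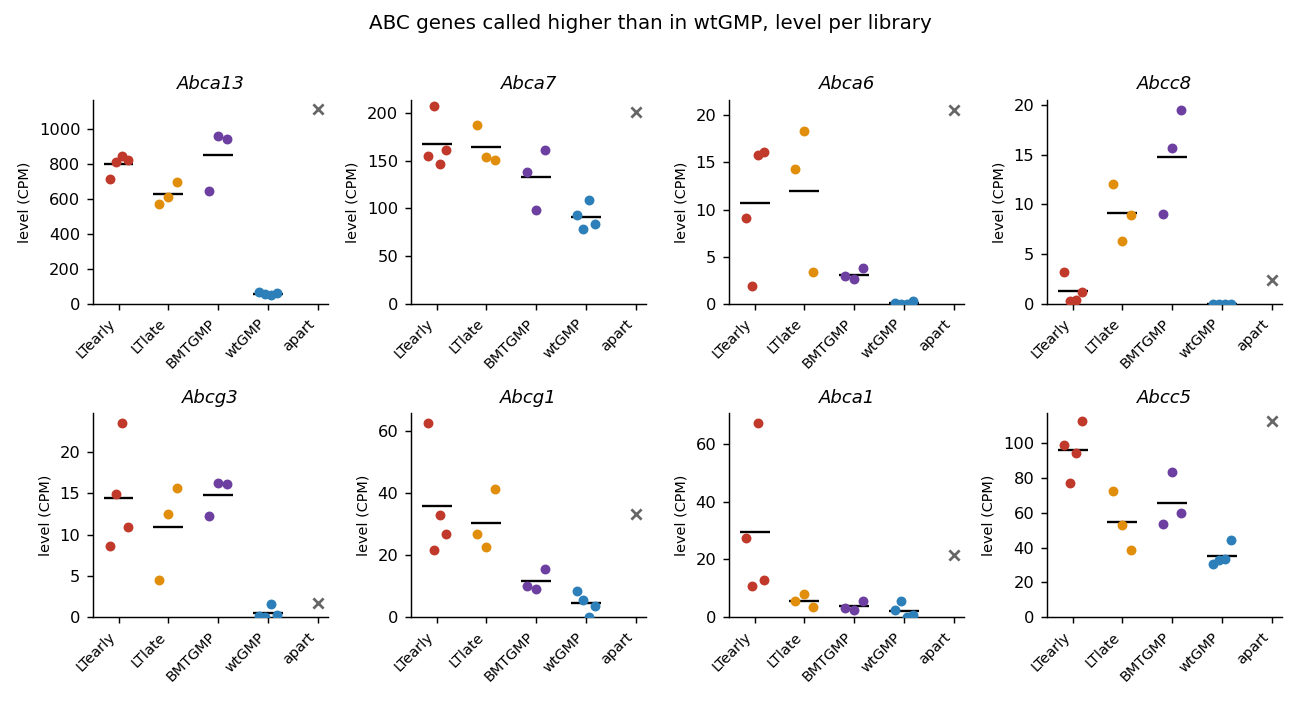
Level (CPM, y axis) of 8 ABC genes called higher than in wtGMP in at least 1 comparison, 1 point per library and a line at the group mean, for LTearly, LTlate, BMTGMP and wtGMP; the cross (apart) is the library whose labels disagree. Abca13 has all 10 libraries of the first 3 groups at 571 CPM or more, and wtGMP at 52.2 to 66.2 CPM, while Abca1 is at 10.9 to 67.2 CPM in LTearly, above the other 3 groups, with the cross at 21.7 CPM.

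P-glycoprotein, the drug efflux pump, is made in mice by a pair of genes, Abcb1a and Abcb1b, which lie next to each other on chromosome 5 with Abcb4 behind them. Per kilobase Abcb1b was the higher of the pair in every group, at 5.03, 11.9 and 0.885 CPM per kb in LTearly, LTlate and BMTGMP, against 15.9 in wtGMP, where Abcb1a had 0.931, 0.858 and 0.205, against 0.857. Abcb1b had 25.0, 24.5, 22.4 and 14.8 CPM in LTearly, 55.1, 42.1 and 56.7 CPM in LTlate, 3.91, 3.76 and 3.77 CPM in BMTGMP, and 63.7, 94.5, 54.5 and 61.7 CPM in wtGMP. BMTGMP was lowest with no overlap with any group, LTearly came next, also apart from the rest, and LTlate overlapped wtGMP. Abcb1b fell in BMTGMP by 4.16 on the log2 scale (SE 0.36, adjusted p = 8.89e-09) and in LTearly by 1.67 (SE 0.29, adjusted p = 0.0001), and LTlate was not called (-0.42 ± 0.30, adjusted p = 0.429).

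Abcb1b also had the smallest p of all members in each comparison among the other groups. It was higher in LTearly than in BMTGMP (2.49 ± 0.34, adjusted p = 4.97e-05) and higher in LTlate than in BMTGMP (3.74 ± 0.37, adjusted p = 1.07e-06). In LTearly against LTlate the log2 fold change was -1.25 ± 0.30 with no overlap, and the call depended on the processing: the adjusted p was 0.0686, but 0.0151 by DESeq2, 0.0301 without a low-count filter and 0.0181 with the library of disagreeing labels counted as LTearly.

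Abcb1a had 16.2, 1.87, 0 and 0.586 CPM in LTearly, 2.77, 7.06 and 3.04 CPM in LTlate, 0.744, 2.33 and 0 CPM in BMTGMP, and 2.01, 3.94, 8.96 and 2.22 CPM in wtGMP. Its groups overlapped except LTlate over BMTGMP, and it was not called anywhere. Abcb4, which moves phosphatidylcholine into bile, stayed between 0 and 14.7 CPM and was not called either. Of the 36-base stretches of the Abcb1b transcript, 22.8% also occur in Abcb1a and 2.65% in Abcb4, and reads with several hits were divided, so counts of these genes are uncertain to that extent; 4 of 15 Abcb1b values and 5 of 15 Abcb1a values are not whole numbers.

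The promoters of Abcb1b and Abcb1a are shown because these neighbours, which encode the same pump, differed in level. Each is the run of 250 bases before the RefSeq start (GRCm38.p6, plus strand), at chr5:8797897-8798146 for Abcb1b and chr5:8566841-8567090 for Abcb1a, with matches on either strand to CCAAT and to GGGCGG (the GC box) in capitals.
Abcb1b: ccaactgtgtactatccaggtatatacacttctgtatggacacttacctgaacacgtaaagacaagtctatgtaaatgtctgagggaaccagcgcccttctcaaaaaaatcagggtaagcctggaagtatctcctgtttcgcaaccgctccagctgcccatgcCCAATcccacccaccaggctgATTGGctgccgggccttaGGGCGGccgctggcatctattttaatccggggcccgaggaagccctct
Abcb1a: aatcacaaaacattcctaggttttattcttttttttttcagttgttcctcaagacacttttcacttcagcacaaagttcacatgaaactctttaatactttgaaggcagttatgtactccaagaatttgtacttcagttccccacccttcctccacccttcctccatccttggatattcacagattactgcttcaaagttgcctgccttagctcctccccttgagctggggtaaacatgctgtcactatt
The Abcb1b window holds 2 matches to CCAAT and 1 to GGGCGG without overlap, at 52.8% G and C, and the Abcb1a window holds 0 of either, at 40.4% G and C. GGGCGG occurs in 32.7% of all windows, and 16 of the 25 members with a window hold it in at least 1 of theirs.

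The other main drug pump, Abcg2, which marks blood stem cells by dye efflux, had 2.94, 6.40, 0 and 0 CPM in LTearly, 1.39, 0.0871 and 2.23 CPM in LTlate, 12.9, 22.2 and 20.5 CPM in BMTGMP, and 18.1, 13.8, 21.5 and 16.5 CPM in wtGMP. LTearly and LTlate lay below BMTGMP and wtGMP without overlap, and BMTGMP overlapped wtGMP. Abcg2 fell by 2.92 in LTearly (SE 1.01, adjusted p = 0.0464) and by 3.79 in LTlate (SE 1.15, adjusted p = 0.0387), and was not called in BMTGMP (0.08 ± 0.98, adjusted p = 0.988). Both calls were near the threshold: the LTearly adjusted p was 0.0796, 0.0701, 0.0985 and 0.0807 without wtGMP libraries 1 to 4 in turn, 0.0858 without LTearly library 1 and 0.068 without LTearly library 3. For LTlate it was 0.0649, 0.0621, 0.0834 and 0.0687 without the same wtGMP libraries, and 0.158, 0.106 and 0.0641 without LTlate libraries 2, 3 and 4. In BMTGMP, then, Abcg2 overlapped the wtGMP range while Abcb1b lay below it.

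Abcg3, a rodent relative of Abcg2, had 8.57, 14.9, 23.5 and 10.9 CPM in LTearly, 4.49, 12.5 and 15.7 CPM in LTlate, 12.2, 16.2 and 16.1 CPM in BMTGMP, and 0.143, 0, 1.57 and 0.317 CPM in wtGMP. No library of the first 3 groups overlapped wtGMP. It rose by 4.72 ± 0.82 in LTearly (adjusted p = 0.000107), 4.31 ± 0.83 in LTlate (adjusted p = 0.000636) and 4.76 ± 0.84 in BMTGMP (adjusted p = 0.000346), and wtGMP rests on 9 reads.

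Among 17 tested genes of drug uptake and detoxification other than ABC pumps, 3 rose and 0 fell in LTearly, 2 rose and 0 fell in LTlate, and 0 were called in BMTGMP by edgeR or DESeq2, where 3 had an unadjusted p under 0.05. The list medians were 0.35, 0.41 and -0.18. Among all tested genes, 11.1%, 7.53% and 4.41% rose in LTearly, LTlate and BMTGMP, and 8.93%, 3.25% and 2.17% fell. Por, the electron donor of cytochrome P450 enzymes, rose in LTearly (1.24 ± 0.31, adjusted p = 0.00437) and LTlate (1.08 ± 0.33, adjusted p = 0.0282). Samhd1, which breaks down deoxynucleotides and the active form of cytarabine, rose in LTearly (2.54 ± 0.62, adjusted p = 0.0145). Its LTearly libraries were very uneven, at 390 ± 423 CPM (SD), against 66.4 ± 24.5 CPM in wtGMP. Samhd1 was not called in LTlate (1.59 ± 0.63, edgeR adjusted p = 0.159) or BMTGMP (0.49 ± 0.64, edgeR adjusted p = 0.781).

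The Abcc subfamily holds exporters of conjugates and cyclic nucleotides, and the sulfonylurea receptors. Abcc8, the regulatory subunit of the ATP-sensitive potassium channel of insulin-secreting cells, had 3.18, 0.266, 0.367 and 1.17 CPM in LTearly, 12.0, 6.36 and 8.91 CPM in LTlate, 9.02, 15.7 and 19.5 CPM in BMTGMP, and no read in any wtGMP library. Its levels in LTlate and BMTGMP were above all LTearly libraries. Against a floor of 3 reads over wtGMP, its pooled reads, scaled to totals, were 7.49-fold higher in LTearly, 51.5-fold in LTlate and 78.1-fold in BMTGMP. The edgeR adjusted p was 0.00724, 0.000394 and 0.000252. These ratios leave out the spread between libraries. Without wtGMP reads, Abcc8 passed the low-count filter only through the groups where it is high, so these p-values are no independent support. The LTearly values rest on 13, 1, 1 and 10 reads. With only LTearly and wtGMP in the fit, Abcc8 did not pass the low-count filter. The other sulfonylurea receptor, Abcc9, stayed between 0 and 6.30 CPM and was not called.

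Abcc5, an exporter of cyclic nucleotides, had 98.9, 77.3, 94.3 and 113 CPM in LTearly, 72.3, 52.9 and 38.5 CPM in LTlate, 53.8, 83.5 and 59.9 CPM in BMTGMP, and 30.4, 33.1, 33.2 and 44.6 CPM in wtGMP. LTearly and BMTGMP did not overlap wtGMP. It rose in LTearly (1.44 ± 0.25, adjusted p = 0.000102) and in BMTGMP (0.90 ± 0.26, adjusted p = 0.0352). The BMTGMP call had an adjusted p of 0.25 without BMTGMP library 2 and of 0.0973, 0.0795 and 0.0876 without wtGMP libraries 1, 2 and 3. Abcc4, also an exporter of cyclic nucleotides, had 58.8, 98.1, 65.7 and 97.8 CPM in LTearly, 105, 117 and 105 CPM in LTlate, 60.8, 63.9 and 74.0 CPM in BMTGMP, and 130, 120, 130 and 81.4 CPM in wtGMP. BMTGMP lay below wtGMP without overlap and its fall of 0.80 on the log2 scale (SE 0.23, adjusted p = 0.0349) was lost without any 1 of the BMTGMP libraries 1, 2 and 4 (0.143, 0.113 and 0.0807) or wtGMP libraries 1, 2 and 3 (0.0943, 0.0718 and 0.0994).

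Abcc1, the exporter of glutathione conjugates and leukotriene C4, averaged 61.2 ± 30.0 CPM in LTearly, 68.1 ± 21.7 in LTlate and 68.6 ± 15 in BMTGMP, against 63.4 ± 14 CPM in wtGMP (SD). Its log2 fold changes of -0.05 ± 0.28, 0.11 ± 0.30 and 0.12 ± 0.30 were within the spread between libraries. Abcc2, which exports conjugates into bile, had 27.2, 28.3 and 24.9 CPM in BMTGMP, against 10.9, 5.51, 18.8 and 8.55 CPM in wtGMP, a separation that was not called (1.28 ± 0.61, adjusted p = 0.249). Abcc3, a conjugate exporter of the liver, stayed at or under 12.6 CPM and Abcc10 at or under 8.53 CPM. Of 17 tested genes of leukotriene and glutathione metabolism, 4 rose and 1 fell in LTearly, 4 rose and 1 fell in LTlate, and 3 rose and 0 fell in BMTGMP. The share of all tested genes called in either direction was 20.1% in LTearly, 10.8% in LTlate and 6.58% in BMTGMP. Alox5, which starts leukotriene synthesis, averaged 112 ± 39.3, 111 ± 13.0 and 50.8 ± 31.0 CPM in these groups, against 9.84 ± 3.92 CPM in wtGMP, and was called in each (adjusted p = 9.65e-07, 2.4e-06 and 0.000286).

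Of the 4 ribosome-bound members, 3 fell in LTearly (background 8.93% lower) and 2 in LTlate (background 3.25% lower). Abcf1, which works with initiation factor eIF2, had 363, 497, 448 and 580 CPM in LTearly, 658, 566 and 615 CPM in LTlate, 764, 712 and 687 CPM in BMTGMP, and 810, 971, 1140 and 1050 CPM in wtGMP. All libraries of the first 3 groups were below all wtGMP libraries, with LTearly and LTlate also below BMTGMP. It fell by 1.07 in LTearly (SE 0.16, adjusted p = 1.38e-05) and by 0.70 in LTlate (SE 0.17, adjusted p = 0.00633, or 0.0666 without LTlate library 3), and was not called in BMTGMP (-0.46 ± 0.17, adjusted p = 0.112; 0.0243 by DESeq2).

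Abcf2, a less studied relative, had 84.5, 109, 120 and 88.2 CPM in LTearly, 110, 118 and 95.5 CPM in LTlate, 160, 161 and 165 CPM in BMTGMP, and 175, 158, 233 and 184 CPM in wtGMP. LTearly and LTlate lay below both other groups. It fell by 0.90 in LTearly (SE 0.18, adjusted p = 0.000625) and by 0.80 in LTlate (SE 0.20, adjusted p = 0.00747, or 0.071 without LTlate library 4), and the BMTGMP change was -0.21 ± 0.20 (adjusted p = 0.639).

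Abce1, which splits ribosomes after termination so that they can be used again, had 169, 130, 166 and 154 CPM in LTearly, 179, 231 and 238 CPM in LTlate, 282, 223 and 229 CPM in BMTGMP, and 352, 253, 337 and 240 CPM in wtGMP. LTearly was below every library of the other 3 groups, and LTlate below every wtGMP library; the library with disagreeing labels, at 152 CPM, lay within the LTearly range. Abce1 fell by 0.94 in LTearly (SE 0.18, adjusted p = 0.00026) and was not called in LTlate (-0.45 ± 0.19, adjusted p = 0.134) or BMTGMP (-0.27 ± 0.19, adjusted p = 0.457). Abcf3, the relative of yeast Gcn20, averaged 39.1 ± 9.42, 37.3 ± 3.75 and 44.4 ± 12.9 CPM in LTearly, LTlate and BMTGMP, against 40.1 ± 6.22 CPM in wtGMP, with no call. Reads of Abcf1, Abcf2 and Abce1 were in part divided among several hits, since 9, 12 and 7 of their 15 values are not whole numbers.

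The promoters of Abcf1 and Abce1, the ribosome-bound members with the highest levels per kilobase, are shown because they fell together in LTearly. Each is the run of 250 bases before the RefSeq start (GRCm38.p6, minus strand, written 5′ to 3′ on that strand), at chr17:35969751-35970000 for Abcf1 and chr8:79711741-79711990 for Abce1, with matches on either strand to CACGTG (the E-box), GGGCGG and CCAAT in capitals.
Abcf1: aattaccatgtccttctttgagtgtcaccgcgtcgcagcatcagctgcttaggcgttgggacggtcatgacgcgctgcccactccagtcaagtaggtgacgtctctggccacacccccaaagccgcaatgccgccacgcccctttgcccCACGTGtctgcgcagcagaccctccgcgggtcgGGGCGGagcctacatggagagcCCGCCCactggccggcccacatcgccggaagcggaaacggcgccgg
Abce1: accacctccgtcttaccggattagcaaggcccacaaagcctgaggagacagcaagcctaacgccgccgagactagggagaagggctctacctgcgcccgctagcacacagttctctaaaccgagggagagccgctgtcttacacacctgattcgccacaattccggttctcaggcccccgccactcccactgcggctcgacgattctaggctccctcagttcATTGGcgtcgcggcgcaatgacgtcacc
Abcf1 holds 1 match to CACGTG and 2 to GGGCGG, and Abce1 holds 1 to CCAAT, with no overlap among them. CACGTG occurs in 6.02% of all windows, and 3 of the 25 members with a window (Abca1, Abcc4 and Abcf1) hold it in at least 1 of theirs.

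Among 18 tested partners in translation and ribosome recycling, 0 rose and 9 fell in LTearly, 0 rose and 2 fell in LTlate, and 0 rose and 2 fell in BMTGMP, with medians of -0.58, -0.38 and -0.24 beside 0.22, 0.00 and 0.07 for all genes. The background share called lower was 8.93% in LTearly, 3.25% in LTlate and 2.17% in BMTGMP. Eif1a, a factor of start codon scanning, averaged 29.4 ± 10.7 CPM in LTearly, against 92.5 ± 6.54 CPM in wtGMP (adjusted p = 8.78e-05). Gspt1, the release factor eRF3a, averaged 166 ± 15.3 CPM in LTearly and 177 ± 18.3 CPM in LTlate, against 311 ± 25.5 CPM in wtGMP (adjusted p = 0.000264 and 0.00359). Of the 8 GMP and promyelocyte markers, 7 were called lower in LTearly and 1 in BMTGMP, each against wtGMP. In LTlate against wtGMP, 4 were called lower and 1 higher. The lowest group differed between markers. Mpo averaged lowest in LTlate (390 ± 141 CPM, SD), Cd34 in BMTGMP (4.75 ± 1.74 CPM) and Cebpa in LTearly (51.4 ± 25.9 CPM). The part of GMP and promyelocyte cells in the fall of Abcf1, Abcf2 and Abce1 was not tested.

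**Figure D4:**
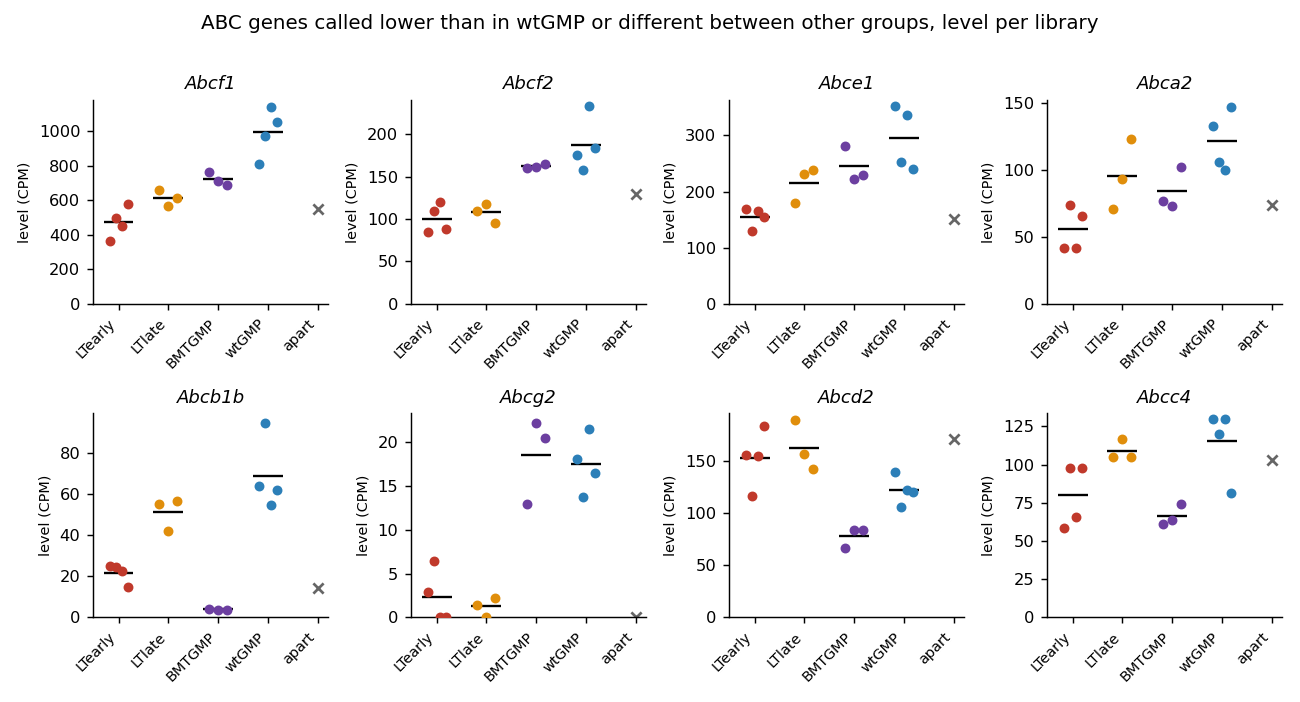
Level (CPM, y axis) of 8 ABC genes called lower than in wtGMP or different between the other groups, 1 point per library and a line at the group mean, for LTearly, LTlate, BMTGMP and wtGMP; the cross (apart) is the library whose labels disagree. Abcb1b is lowest in BMTGMP, at 3.76 to 3.91 CPM, where Abcg2 stays at 12.9 to 22.2 CPM, and Abcf1 is below 810 CPM in every library outside wtGMP.

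The peroxisomal members, which import fatty acyl-CoA for breakdown, differed from each other. Abcd2 had 156, 117, 155 and 184 CPM in LTearly, 190, 157 and 143 CPM in LTlate, 67.0, 83.5 and 84.4 CPM in BMTGMP, and 140, 106, 122 and 121 CPM in wtGMP. BMTGMP was below every library of the other 3 groups. Against BMTGMP it was higher in LTearly (0.97 ± 0.21, adjusted p = 0.00427) and in LTlate (1.06 ± 0.22, adjusted p = 0.00523), while BMTGMP against wtGMP fell short of the threshold (-0.64 ± 0.20, adjusted p = 0.0571; 0.013 by DESeq2). Of its 15 values, 12 are not whole numbers. Abcd4, which sits in lysosomes and handles cobalamin, ranged from 0.367 to 18.5 CPM and was not called.

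Abcd3 had 30.4, 47.2, 18.4 and 45.6 CPM in LTearly, 41.4, 49.8 and 29.1 CPM in LTlate, 51.3, 48.1 and 40.4 CPM in BMTGMP, and 63.4, 58.3, 51.1 and 84.5 CPM in wtGMP. LTearly and LTlate were below every wtGMP library. The fall in LTearly of 0.85 on the log2 scale (SE 0.29, adjusted p = 0.0361) was lost without wtGMP library 1 or 4 (0.0668 and 0.135) and without LTearly library 1 or 3 (0.0752 and 0.0969). In a list of 20 tested peroxisome genes, edgeR called 0 against wtGMP in LTearly, LTlate or BMTGMP, with 2, 0 and 2 genes under 0.05 before adjustment, 0 calls by DESeq2 and list medians of -0.07, 0.08 and 0.03.

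Mitochondrial members include Abcb10 and Abcb8 of the inner membrane, the first tied to haem synthesis in red cell precursors, and Abcb6 handles porphyrins. None was called. Abcb6 ranged from 0 to 11.7 CPM and Abcb8 from 2.66 to 23.7 CPM over all grouped libraries. Abcb10 had 16.2, 16.5, 19.5 and 18.4 CPM in LTearly, 10.6, 16.0 and 13.8 CPM in LTlate, 14, 18.4 and 29.8 CPM in BMTGMP, and 30.8, 52.8, 20.2 and 11.1 CPM in wtGMP, with a wide spread within wtGMP. Of 19 haem and mitochondrial iron genes, 1 rose and 3 fell in LTearly, 1 rose and 2 fell in LTlate, and 1 rose and 0 fell in BMTGMP. Of all tested genes, 20.1%, 10.8% and 6.58% were called in these comparisons in either direction, and the 4 calls in LTearly were near this share. Tfrc, the transferrin receptor, averaged 55.6 ± 15.1 CPM in LTearly and 43.2 ± 13.8 CPM in LTlate, against 135 ± 34 CPM in wtGMP (adjusted p = 0.000556 and 0.000201), and Fech, which puts iron into haem, averaged 98.5 ± 20.7 CPM in BMTGMP, against 31.3 ± 9.01 CPM in wtGMP (adjusted p = 0.000866). The 10 erythroid markers, Tfrc among them, summed to 51.2 to 93.8 CPM in LTearly, 58.2 to 59.1 in LTlate, 88.3 to 143 in BMTGMP and 99.9 to 172 in wtGMP. On average Tfrc made up most of these sums, so they say little about the other markers. Of 7 tested erythroid markers, 2 were called in LTearly against wtGMP, Tfrc lower and Ermap higher (4.53 ± 5.49 against 0 CPM, edgeR adjusted p = 0.0399). The part of erythroid cells in these values was not tested.

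The peptide carrier among the members is Abcb9 of lysosomes, at 0 to 6.91 CPM and not called. In a list of 13 genes of peptide loading and class I presentation, 0 rose and 3 fell in LTearly, 0 rose and 3 fell in LTlate, and 0 rose and 5 fell in BMTGMP. Over all tested genes, 11.1%, 7.53% and 4.41% rose and 8.93%, 3.25% and 2.17% fell in LTearly, LTlate and BMTGMP. Calr, a chaperone of the loading complex, averaged 6760 ± 1210, 8860 ± 1430 and 10400 ± 2010 CPM in these groups, against 25400 ± 4510 CPM in wtGMP (SD), with adjusted p of 2.83e-09, 1.03e-06 and 1.77e-05. Among 13 tested ABC genes outside the 35, edgeR called 0 in LTearly (1 by DESeq2, and 2 under 0.05 before adjustment), 0 in LTlate (0 and 0) and 1 in BMTGMP against wtGMP. Many of the 13 had low levels in every group. The gene called in BMTGMP was Cftr, the chloride channel of the family, with 8.84, 123 and 13.4 CPM in BMTGMP libraries 1, 2 and 4, against 0 to 2.85 CPM in wtGMP (adjusted p = 0.012).

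Comparisons among LTearly, LTlate and BMTGMP called fewer genes in all. In LTearly against LTlate, edgeR called 0 of the 34 members in either direction (background 0.117% higher, 0.0894% lower and 0.206% in all), DESeq2 called 1, and 9 had an unadjusted p under 0.05. Groups did not overlap for 9 members (26.5%; background 10.2%). Of these, 4 were higher in LTearly (Abca1, Abca13, Abcb10 and Abcc5; background 4.51%) and 5 were lower in LTearly (Abca9, Abcb1b, Abcc4, Abcc8 and Abce1; background 5.67%). In LTearly against BMTGMP, 7 members were called (20.6%; background 6.21%) and 10 did not overlap (29.4%; background 15.6%). Of the calls, 3 were higher (Abca1, Abcb1b and Abcd2; background 3.4%) and 4 lower (Abcc8, Abce1, Abcf1 and Abcf2; background 2.81%); with median-ratio size factors the split was 3 higher and 2 lower. In LTlate against BMTGMP, 2 members were called (5.88%; background 1.98%), both higher (Abcb1b and Abcd2; background 1.52%), with 0 called lower (background 0.461%), and 11 did not overlap (32.4%; background 20.5%).

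Of the LTearly calls against BMTGMP, those of Abcb1b and Abcd2 were kept under the 17 alternatives run for them, and the other 5 were not. Abca1 was higher by 2.99 ± 0.89 (adjusted p = 0.0439, or 0.249 without LTearly library 3, the highest, and 0.0666 to 0.165 without LTearly library 1 or any of BMTGMP libraries 1, 2 and 4). Abcc8 was lower by 3.52 (log2 fold change -3.52, SE 1.05, adjusted p = 0.0448), a call lost without any 1 of LTearly libraries 2, 3 and 4 and BMTGMP libraries 1, 2 and 4 (0.0568 to 0.173). Abce1 (-0.66 ± 0.19, adjusted p = 0.0306) lost its call without LTearly library 2 (0.0855) or BMTGMP library 1 (0.154). Abcf1 (-0.61 ± 0.17, adjusted p = 0.0252) lost it without LTearly library 1 or 3 (0.0648 and 0.0513) or BMTGMP library 1 or 2 (0.0871 and 0.055). Abcf2 (-0.69 ± 0.19, adjusted p = 0.0301) lost it without LTearly library 1 (0.0626) or any of BMTGMP libraries 1, 2 and 4 (0.0695, 0.0657 and 0.0563).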

How the data were processed

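RNA was read from sorted mouse bone marrow with a low-input ScriptSeq kit on an Illumina HiSeq, per the labels' protocols. The deposited table holds expected counts per RefSeq transcript: the authors divided a read with several hits (up to 100) among them, per the file headers, and 13.75% of values are not whole (tolerance 1e-06). The submitters' processing notes name Bowtie 0.9.9.1 and genome build mm9.

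Of 28847 transcripts, 26092 were matched to a symbol (25973 through RefSeq's gene table and 119 through GENCODE), giving 20453 genes with 2469470 to 15093009 counts per library; 3.5% to 4.2% of counts lay on unmatched transcripts. For each gene the transcript with most reads on average was used, and its expected counts were rounded to whole numbers. edgeR 4.0.16 (R 4.3.3, limma 3.58.1) fitted all 14 grouped libraries together with TMM scaling, its low-count filter and a robust quasi-likelihood test, with Benjamini-Hochberg adjustment over 14542 genes and a threshold of 0.05; the BCV (spread between replicates in edgeR) was 0.748. The standard error of a log2 fold change is its size over the root of F. Levels are CPM on TMM-scaled totals, and levels per kilobase use GENCODE transcript lengths. The fit was also run on simulated counts with known changes. Their spread was estimated from these data, so that run cannot show that the calls hold. The highest Spearman correlation between libraries was 0.956, so none was counted as a duplicate.

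The library whose title and column name give different groups entered no comparison, and 1 column that matches no sample was not used. Alternatives were DESeq2 1.42.0, median-ratio size factors, other low-count filters, a replicate block, fits of only the groups compared, transcripts summed per gene, that library counted in either group, each library left out, and libraries thinned to equal totals (chosen after seeing the data). A marker gene of the chosen lists is not reported here and was left out of their sums. The members and gene lists were chosen with earlier results of these data known. All members may be named. Of each other list, up to 3 genes with the smallest p per comparison are named, and the LXR genes Nr1h2 and Nr1h3 were added. Promoters come from RefSeq (GRCm38.p6); 25 members had a window. Intervals (95%) and floors (3 counts over a group) cover counting error only.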

Additional observations from a re-analysis of the deposited data

Results flagged for a closer look

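In 6 of 69 member and group sets of 4 libraries, 1 library stood far apart from the other 3 by Dixon's criterion at the 95% level. The chance rate of about 1 in 20 holds for normally spread values, which counts near 0 are not. LTearly library 1 was high for the drug pump gene Abcb1a, at 16.2 CPM with the others at 0 to 1.87 CPM, and for the conjugate exporter gene Abcc1, at 106 CPM with the others at 41.1 to 50.4 CPM. The remaining 4 are genes near the limit of detection. Where 3 of 4 libraries have no read, any read in the other 1 is flagged, as for Abcc6 and Abcg4 here. Abcc6 had 0.367 CPM in LTearly library 3 and 1.18 CPM in wtGMP library 2, and no read in the other libraries of those groups. Abcc3 had 3.15 CPM in wtGMP library 2, with the others at 0 to 0.143 CPM. Abcg4 had 6.27 CPM in wtGMP library 3 and no read in the other wtGMP libraries.

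The library whose labels disagree (LTearly by title, LTlate by column name) entered no comparison and lay above every wtGMP library for 11 members. The share of all genes above every wtGMP library in it was not computed, so this count is not a result about the members. Its lipid transporter levels were 1110 CPM for Abca13, 201 CPM for Abca7, 59.4 CPM for Abca3, 35.3 CPM for Abca9, 33.4 CPM for Abcg1, 21.7 CPM for Abca1 and 20.6 CPM for Abca6. Abcd2 was at 172 CPM, Abcc5 at 113 CPM, Abcc8 at 2.4 CPM and Abcg3 at 1.73 CPM, the last close to the highest wtGMP value of 1.57 CPM. Its Abcb1b level of 14.4 CPM was below every LTearly and LTlate library, and Abcg2 had no read. It carried late neutrophil markers at a summed 17600 CPM and LT-HSC markers at a summed 105 CPM, the highest LT-HSC sum of any library.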

How the results depend on the processing

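The 40 member calls gave 691 values under alternatives, of which 610 were still called in the same direction, 81 were not and 0 were reversed; 26 calls were kept under every alternative that could be fitted. Another 11 member differences were called under an alternative alone. In LTearly against LTlate, where 0 members were called, 1 was called (Abcb1b) by DESeq2, without a low-count filter, with a filter of 1 CPM in 3 libraries, or with the library of disagreeing labels counted as LTearly. In LTearly against BMTGMP, the 7 calls became 3 with only those groups in the fit, 4 with transcripts summed per gene, and 2 to 6 when 1 library was left out. In LTearly against wtGMP with only those groups in the fit, Abca6 and Abcc8 did not pass the low-count filter. The cause of these changes was not tested.

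With the replicate number as a block, 15, 9, 5, 0, 5 and 2 members were called in LTearly, LTlate and BMTGMP against wtGMP, LTearly against LTlate, LTearly against BMTGMP and LTlate against BMTGMP, beside 15, 9, 7, 0, 7 and 2 without it. Same-numbered libraries correlated at -0.16 to 0.115 in their deviations, and no pairing was assumed. Parts of the unexplained codes in the titles also recur between LTearly and LTlate: LTearly library 1 and LTlate library 3 correlated at -0.0156, and LTearly library 3 and LTlate library 2 at 0.0809. No fit with these codes as a block was made. Thinned to equal totals, the counts were 15, 9, 6, 0, 5 and 3.

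Over all genes, the 30 calls in LTearly against LTlate became 266 by DESeq2, 141 without a filter, 52 with 1 CPM in 3 libraries, 86 or 0 with the library of disagreeing labels counted as LTearly or LTlate, and 4 to 209 with 1 library left out. DESeq2 gave 1449 calls (edgeR 957) in BMTGMP against wtGMP, 1519 (edgeR 903) in LTearly against BMTGMP and 582 (edgeR 288) in LTlate against BMTGMP. With only the groups compared in the fit, LTlate against wtGMP gave 2483 calls (1568 in the joint fit), LTearly against BMTGMP 407 (903) and LTlate against BMTGMP 454 (288). Leaving out LTlate library 2 gave 921 in LTlate against wtGMP and 155 in LTlate against BMTGMP, leaving out BMTGMP library 4 gave 165 in LTlate against BMTGMP, and leaving out BMTGMP library 1 gave 583 in LTearly against BMTGMP.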

Other observations

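Summed over its members, the Abca subfamily averaged 1150 ± 107 CPM in LTearly, 1040 ± 42.9 in LTlate and 1150 ± 186 in BMTGMP, against 335 ± 26 CPM in wtGMP (SD), and outside wtGMP most of it was Abca13. The Abcf subfamily averaged 611 ± 88.5, 758 ± 41.9 and 928 ± 27.7 CPM in the same groups, against 1220 ± 167 CPM in wtGMP. The Abcc subfamily stayed close between groups, at 256 ± 37.8, 266 ± 5.58 and 253 ± 32.2 CPM, against 232 ± 10.9 CPM in wtGMP, although Abcc5, Abcc8 and Abcc4 within it differed. Sums over a subfamily weight long, highly read genes most, and they were not tested.

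Eosinophil, basophil and mast cell markers summed to 19.8 to 71.9 CPM in LTearly, 108 to 341 in LTlate and 8.65 to 12.4 in BMTGMP, against 172 to 288 CPM in wtGMP. Megakaryocyte markers stayed at or under 25.1 CPM, B cell markers at or under 25.0 CPM and T and NK cell markers at or under 39.0 CPM in every grouped library.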
